A study of Mus musculus with 4 samples.

Results

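The genes described here are 49 genes of the cell cycle, measured in whole mouse hearts with and without the microRNA miR-1. They were chosen by name from textbook roles, with earlier results of these data known. Every 1 of them had at least 1 FPKM in all 4 libraries. FPKM is fragments counted for each kilobase of a transcript, per 1000000 fragments. Of 22516 gene rows, 12158 reached 1 FPKM in any library. By function, 12 serve DNA replication, 25 serve mitosis and 12 are cyclins or cyclin-dependent kinases. Poly-A RNA from whole heart of mice of the strain labelled Sv129 was sequenced at postnatal day 2.5 (P2.5) and embryonic day 15.5 (E15.5). At each stage 1 library came from a double knockout of the miR-1 genes (labelled dKO), and 1 from the control labelled dHET. The series' text calls the P2.5 control a littermate, and the P2.5 table names it hetero. The E15.5 table names its control WT, although that sample carries the label dHET, so the alleles of the fetal control are uncertain. The sources used here do not give how the alleles were made or how many hearts went into a library. With 1 library a group there is no replicate error, no test was possible, and every difference below is between 2 libraries.

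A dividing cell first copies its DNA, loading the ring of Mcm proteins onto origins and making nucleotides, and then separates the copies with spindle motors, kinetochores and the chromosomal kinases. Cyclins switch on their kinases in turn, D-type cyclins with Cdk4 and Cdk6 early, cyclin E and cyclin A with Cdk2 in replication, and cyclin B with Cdk1 in mitosis. Heart muscle cells divide in the fetus and largely leave the cell cycle around birth. Transcripts of the replication genes are known to be driven by E2F factors, and those of the mitosis genes by complexes that bind the cell cycle homology region (CHR) and CCAAT boxes.

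The promoters of the replication and the mitosis genes differed in the words they held. RefSeq promoters (build GRCm38.p6, 250 bases before to 50 after a start) were matched by symbol for 40 of the 49 genes, giving 44 promoters, and were searched on both strands. An E2F word (TTTCCCGC, TTTCGCGC, TTTGCCGC or TTTGGCGC) stood in 33.3% of 12 replication promoters and in 0 of 23 mitosis promoters, against 3.97% of the 11120 promoters of genes with at least 1 FPKM. The CHR word TTTGAA stood in 78.3% of the mitosis promoters, 16.7% of the replication promoters and 11.6% of the 11120. CCAAT was in 82.6% and 83.3% of the mitosis and replication promoters, against 37.4%. Among the 44 promoters, an E2F word overlapped a CCAAT box in 1, a CHR word overlapped one in 1, and no E2F word overlapped a CHR word. A match is a description of the letters and not a site. The stretches below are each 30 bases upstream of the start, with the word in capitals. They show 1 E2F word of a replication gene and 1 CHR word in each of 3 mitosis genes. Cdk1, the mitotic kinase, is shown with 1 E2F word and 1 CHR word. CCAAT boxes are not marked. The promoters of Mcm6, Top2a and Cdk1 hold further E2F or CHR words that are not marked. In the Mcm6 stretch, an E2F word on the opposite strand overlaps the marked one. The CHR stretches of Top2a and Cdk1 each hold a CCAAT box on the opposite strand, in lower case.
Mcm6, E2F word, chr1:128359797-128359826, minus strand: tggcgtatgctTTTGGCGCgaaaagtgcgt
Ube2c, CHR word on the opposite strand, chr2:164769888-164769917, plus strand: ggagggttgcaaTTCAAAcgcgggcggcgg
Ect2, CHR word, chr3:27153975-27154004, minus strand: ccgtttaccggaTTTGAAacacactcacaa
Top2a, CHR word, chr11:99024351-99024380, minus strand: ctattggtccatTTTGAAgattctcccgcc
Cdk1, E2F word, chr10:69353025-69353054, minus strand: tttccgctcccTTTCGCGCtctgcgctccc
Cdk1, CHR word, chr10:69352966-69352995, minus strand: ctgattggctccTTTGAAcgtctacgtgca

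**Figure D1:**
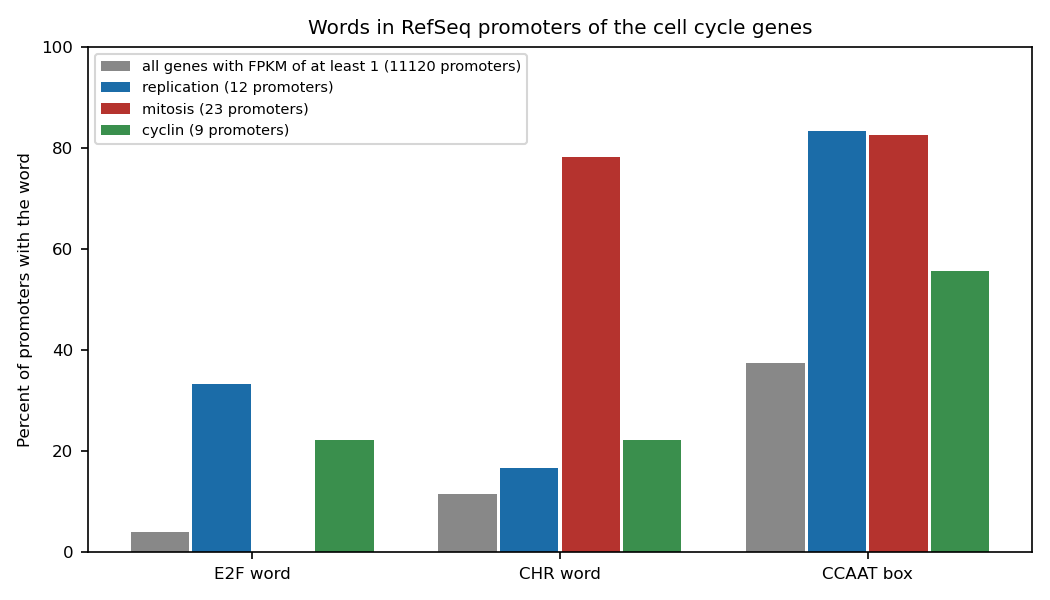
Percent of promoters (y axis) that hold an E2F word, the CHR word or a CCAAT box (x axis), for all genes with at least 1 FPKM and for the 3 function groups. The CHR bar is tall only in the mitosis group (78.3%), where the E2F bar is at 0.

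In the newborn heart the mitosis genes were higher in the dKO library, and in the fetal heart the same genes were lower. Of 25 mitosis genes, 24 lay above 0 at P2.5 and below 0 at E15.5, and Kif11 was above 0 at both. Rescaling each library to the same summed FPKM left 80.0% of the 25 above 0 at P2.5, with Mki67, Nusap1, Foxm1, Kif11 and Ect2 below. The median log2 change, on the scale log2((FPKM dKO + 1)/(FPKM dHET + 1)), was 0.27 (P2.5) and -0.17 (E15.5). Over all genes counted the medians were 0.062 and -0.0074, and 24.9% of 12095 genes were above 0 at P2.5 and below 0 at E15.5. Of the 48 members counted at both stages, 37 had that combination, 5 were above 0 at both (35.4% of all genes), 6 below 0 at both (27.3%), and none was below at P2.5 and above at E15.5 (12.4% of all genes). The changes are small, since 2 of 48 members reached 1.5-fold at P2.5 (3.29% of 12121 genes were that much higher), 0 of 48 were as much lower (1.3%), and 0 of 49 passed at E15.5 (0.479% of 12113 higher and 0.71% lower). In the authors' deposited tables, 0 of the 49 genes are called significant at either stage, with the lowest q-values at 0.430 (Cenpe, P2.5) and 0.429 (Ect2, E15.5). In whole hearts, a change in the number of dividing cells and one in these transcripts per dividing cell cannot be told apart at either stage.

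**Figure D2:**
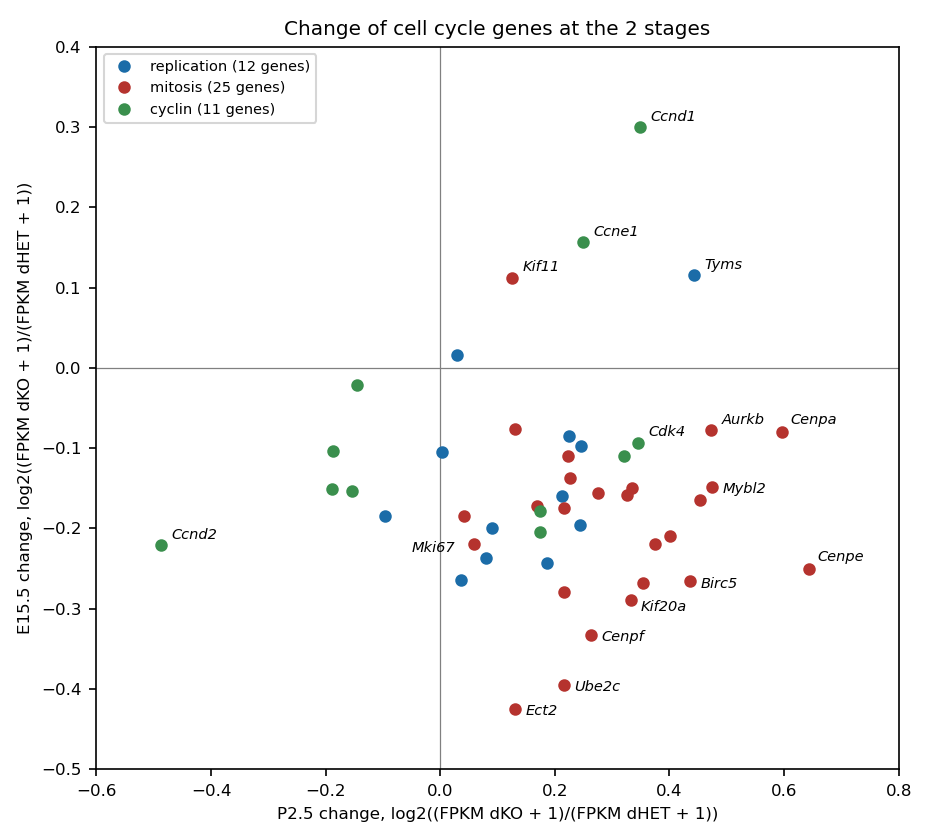
Log2 change in dKO over dHET at P2.5 (x axis) against that at E15.5 (y axis), 1 point for each of the 48 genes counted at both stages, coloured by function group. The mitosis genes fill the lower right field, with Kif11 the only 1 of 25 outside it, while cyclins lie in 3 of the 4 fields.

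Libraries and stages differ in other ways that stand beside these values. The recovered scaling totals were 44600000 (dHET) and 49900000 (dKO) fragments for the newborn pair, and 86500000 and 104000000 for the fetal pair. At the longest annotated transcript these give about 254 to 10669 fragments a member at P2.5 and 1094 to 41787 at E15.5. Xist, which silences an X chromosome, was listed at P2.5 with 0.101 FPKM (dHET) and 50.7 (dKO). Ddx3y, a Y chromosome gene, was listed with 11.7 and 0, so sex and genotype cannot be told apart there. At E15.5 Ddx3y was at 15.3 and 14.8 FPKM. The summed FPKM of the P2.5 dKO table was larger than that of dHET (296090 against 262659), and rescaling both to 1000000 moved the median change of all genes by -0.15, to -0.093. On that scale 66.7% of members lay above 0 at P2.5, against 36.7% of all genes, where the deposited values gave 87.5% of members against 60.2%. At E15.5 rescaling left the share of members above 0 at 10.2%, with 46.2% of all genes above 0 (47.8% as deposited).

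Cenpe and Cenpa had the highest changes of the 48 genes counted at P2.5. Cenpe (chromosome 3, 134875527 to 134936504, mm9), the kinesin that moves chromosomes to the spindle equator, was at 3.39 FPKM (dHET) against 5.85 (dKO) at P2.5, then 11.2 and 9.24 at E15.5. Its log2 change was 0.64 (P2.5) and -0.25 (E15.5), so the genotypes stood in opposite order at the stages. The plain FPKM ratio at P2.5 was 1.73, with an exact 95% counting interval of 1.61 to 1.85 from about 1181 and 2283 fragments. Such intervals cover counting error only, and not the spread between hearts. Cenpa (chromosome 5, 30969150 to 30977200), the histone variant that marks the centromere, was at 23.0 and 35.2 FPKM at P2.5, then 31.8 and 30.03 at E15.5. Its P2.5 change of 0.60 was the only other that reached 1.5-fold, and its E15.5 change was -0.080. Neither call stood under every scaling. Centred on the median of all genes, Cenpe was at 0.58 and Cenpa at 0.53, and rescaled, at 0.58 and 0.44. These values lie just under the threshold or below it. Rescaling raised the FPKM values but kept the added 1, so it also changed how far that 1 shrinks low values. With a pseudocount of 0.1 in place of 1, Cenpe, Cenpa and Mybl2 passed.

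Aurkb, the kinase of the passenger complex, was at 7.31 FPKM (dHET) against 10.5 (dKO) at P2.5, then 15.8 and 14.9 at E15.5. Birc5, or survivin, of the same complex, was at 20.3 and 27.8 FPKM at P2.5, then 50.6 and 41.9 at E15.5. Cdca8, or borealin, also of that complex, was at 0.23 and -0.14. Bub1b, a kinase-like checkpoint protein, was at 9.26 and 13.0 FPKM at P2.5, then 22.5 and 19.9 at E15.5, and its partner Bub1 changed by 0.22 and -0.17. Cdc20, the activator that the checkpoint restrains, changed by 0.33 and -0.15. In each of these, as in 24 of the 25 mitosis genes, the dKO library was the higher one at P2.5 and the lower one at E15.5.

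Ect2, Ube2c and Cenpf had the lowest changes of the 49 genes at E15.5. Ect2 (chromosome 3, 26996144 to 27052800), the exchange factor that starts the cleavage furrow, was at 20.4 FPKM (dHET) against 14.9 (dKO) at E15.5, with 6.39 and 7.09 at P2.5. Its log2 change was -0.42 at E15.5, where the FPKM ratio was 0.733 (counting interval 0.708 to 0.758), and 0.13 at P2.5. Racgap1, its partner at the midzone, was at 35.6 and 30.7 FPKM at E15.5, with 16.1 and 21.6 at P2.5. Ube2c (chromosome 2, 164595398 to 164604322), the ubiquitin conjugating enzyme of mitotic exit, was at 89.5 and 67.8 FPKM at E15.5, with 39.6 and 46.1 at P2.5, changes of -0.40 and 0.22. Cenpf, Kif20a, Prc1 and Tpx2 changed by -0.33, -0.29, -0.28 and -0.27 at E15.5, and by 0.26, 0.33, 0.22 and 0.35 at P2.5. Kif11, the motor that pushes spindle poles apart, went the other way at E15.5, from 20.9 to 22.6 FPKM (0.11). At 1.2-fold, 7 mitosis genes were lower at E15.5 and 0 higher, against 4.37% and 5.15% of all genes. At P2.5 14 were higher and 0 lower, against 21.4% and 9.76%.

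The common marker of dividing cells, Mki67, changed little at P2.5, and its sign there turned on rescaling (-0.11). Mki67, the coat protein of mitotic chromosomes, was at 19.2 FPKM (dHET) against 20.0 (dKO) at P2.5 (0.059), and at 46.6 and 39.9 at E15.5 (-0.22). Top2a, the enzyme that untangles sister chromatids, was at 26.7 and 32.5 FPKM at P2.5 (0.27) and at 70.8 and 63.4 at E15.5 (-0.16). Foxm1, a factor that drives mitosis genes, was at 8.14 and 9.01 FPKM at P2.5, then 16.6 and 15.7 at E15.5. Mybl2, its partner in that role, was the lowest member, at 1.56 and 2.56 FPKM at P2.5, then 3.47 and 3.03 at E15.5, so the added 1 FPKM shrinks its change (0.47 at P2.5). Nusap1, a spindle microtubule protein, changed by 0.041 at P2.5, the smallest change of the mitosis group there. The other mitosis genes, Aurka, Plk1, Kif23 and Anln, changed by 0.38, 0.17, 0.33 and 0.22 at P2.5 and by -0.22, -0.17, -0.16 and -0.11 at E15.5.

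**Figure D3:**
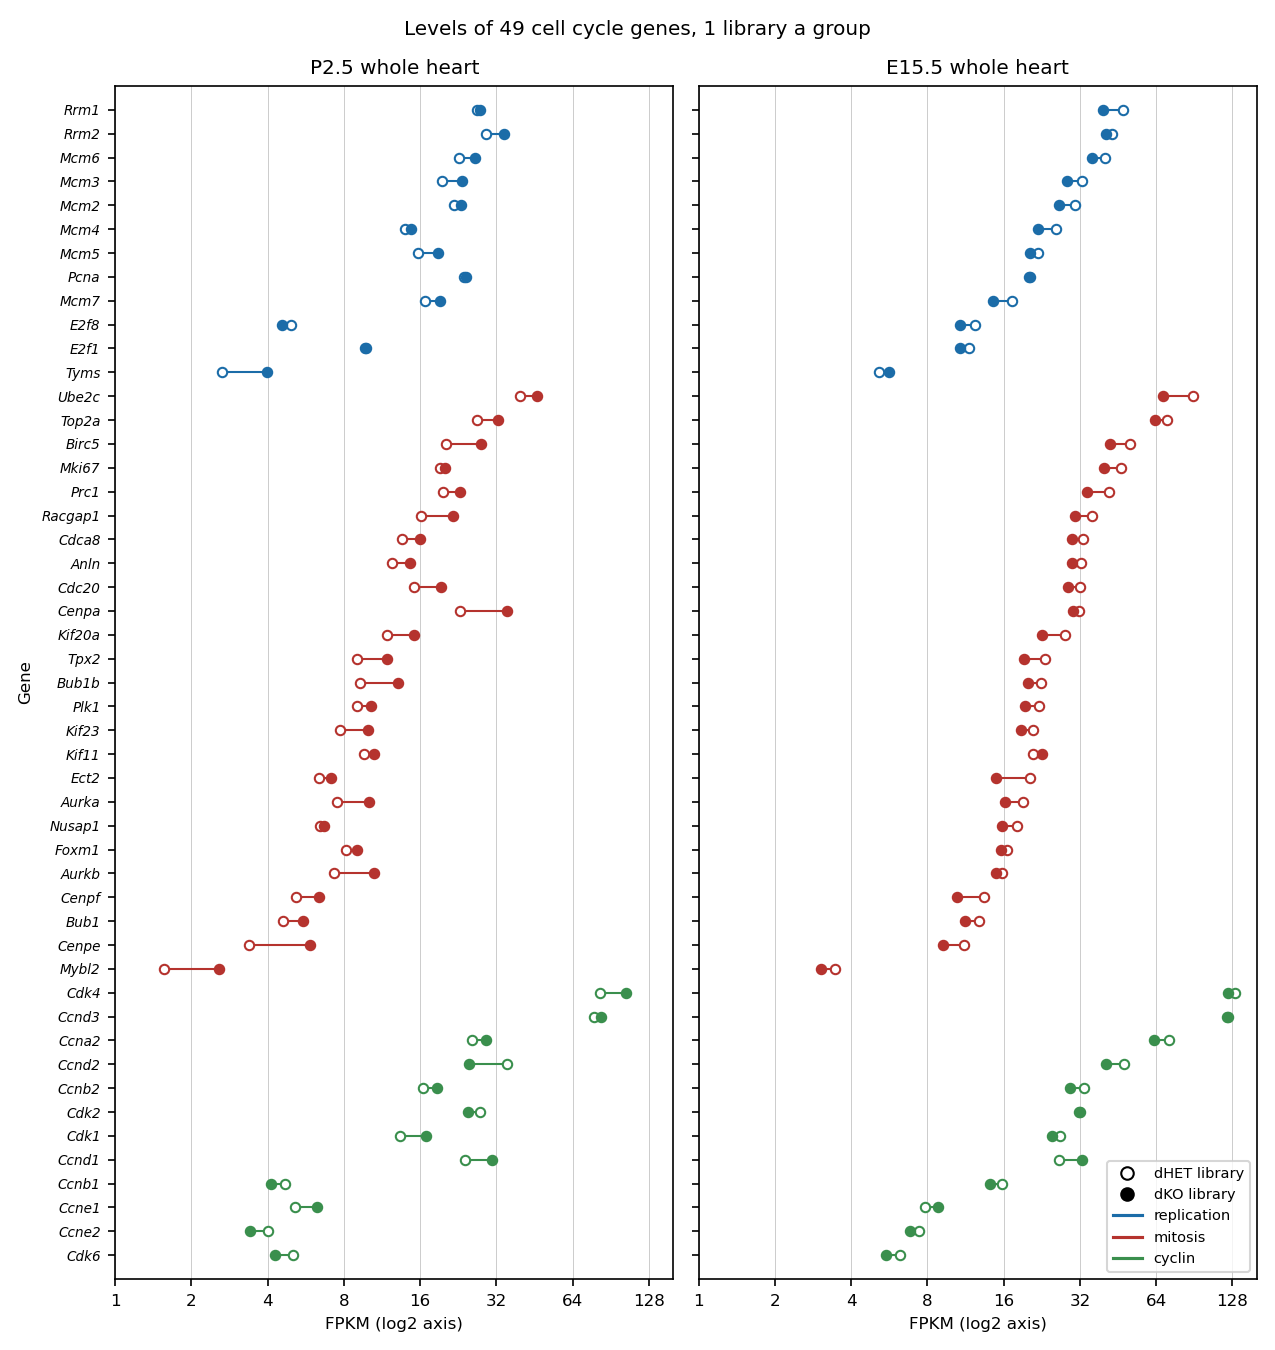
FPKM (x axis, log2 scale) of the 49 genes (rows) in the dHET library (open circles) and the dKO library (filled circles) at P2.5 (left) and E15.5 (right), with 1 library a circle. Filled circles of the mitosis genes lie to the right of the open ones at P2.5 and, except for Kif11, to the left at E15.5.

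Most replication genes were also above 0 at P2.5 and below 0 at E15.5. Of 12, 11 were above 0 at P2.5 (median 0.14, with 60.2% of all genes above 0) and 10 below 0 at E15.5 (median -0.17, with 52.2% of all genes below 0). Rescaled, the P2.5 median was -0.026, where that of all genes was -0.093, and Mcm2, Mcm4, Pcna, Rrm1 and E2f1 lay below 0 with E2f8. The Mcm helicase subunits lay between 0.079 (Mcm4) and 0.245 (Mcm5) at P2.5 and between -0.24 (Mcm7) and -0.097 (Mcm5) at E15.5. Mcm6, whose promoter carries the E2F word shown, was at 22.7 FPKM (dHET) against 26.5 (dKO) at P2.5, then 40.0 and 35.7 at E15.5. Mcm3 was at 19.6 and 23.3 at P2.5, then 32.7 and 28.4 at E15.5. Rrm1 and Rrm2 are the subunits of ribonucleotide reductase, which makes deoxynucleotides. Rrm1 was at 26.8 and 27.5 FPKM at P2.5, then 47.5 and 39.4 at E15.5, and Rrm2 at 29.1 and 34.2, then 42.9 and 40.4.

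Tyms and Pcna stood apart from the other replication genes at E15.5. Tyms, which makes thymidylate, was higher in dKO at both stages, at 2.65 and 3.96 FPKM at P2.5 (0.44) and at 5.15 and 5.66 at E15.5 (0.12). Pcna, the sliding clamp of DNA polymerase, was nearly level, at 23.8 and 24.3 FPKM at P2.5, then 20.1 and 20.4 at E15.5. E2f1, an activating E2F, was at 9.72 and 9.74 FPKM at P2.5, then 11.6 and 10.8 at E15.5. E2f8, a repressing E2F, was lower in dKO at both stages (-0.097 and -0.18). Values of Pcna, Mcm7, Ccnb1 and Ccnd3 are uncertain, because copies of at least 95% identity elsewhere in the genome cover 82.8%, 80.2%, 76.4% and 86.7% of their transcripts.

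Cyclins and their kinases did not move as 1 group. At P2.5 6 of 11 were above 0 and 5 below (60.2% of all genes above 0 and 39.7% below), and at E15.5 10 of 12 were below 0 (52.2% of all genes). The D-type cyclins, which answer growth signals, parted. Ccnd1 (chromosome 7, 152115836 to 152125774) was higher in dKO at both stages, at 24.0 and 30.8 FPKM at P2.5, then 26.4 and 32.7 at E15.5, changes of 0.35 and 0.30. Ccnd2 (chromosome 6, 127075797 to 127101066) was lower at both, at 35.3 and 24.9 FPKM at P2.5, then 47.6 and 40.7 at E15.5, changes of -0.49 and -0.22. Rescaled, these were 0.19 and 0.30 for Ccnd1, and -0.67 and -0.23 for Ccnd2, which then passed 1.5-fold at P2.5. Ccnd3 was at 123 and 121 FPKM at E15.5. At P2.5 it was listed at 78.0 and 83.0 FPKM under a flag for a failed estimate, and was left out of the counts.

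Among the other cyclins the E-types also differed from each other. Ccne1 was at 5.11 FPKM (dHET) against 6.27 (dKO) at P2.5, then 7.79 and 8.80 at E15.5, higher at both stages, while Ccne2 was at 4.03 and 3.41, then 7.41 and 6.83. Ccna2, cyclin A, was at 25.7 and 29.1 FPKM at P2.5, then 72.2 and 62.5 at E15.5. Ccnb1 and Ccnb2, the mitotic cyclins, changed by -0.15 and 0.17 at P2.5 and by -0.15 and -0.18 at E15.5. Cdk1 had the signs of most mitosis genes, at 13.3 and 16.8 FPKM at P2.5, then 26.7 and 24.7 at E15.5. Cdk4 was the highest member, at 81.8 and 104 FPKM at P2.5, then 131 and 123 at E15.5. Cdk6 was at 5.03 and 4.29 FPKM, then 6.21 and 5.49, and Cdk2 changed by -0.14 and -0.021. Exons on the opposite strand cover 32.3% of the exon bases of Kif20a, 22.8% of Ube2c, 21.3% of Ccnd1 and 18.6% of Cdk4. Whether the authors' counting used strand is not given in the sources used here.

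**Figure D4:**
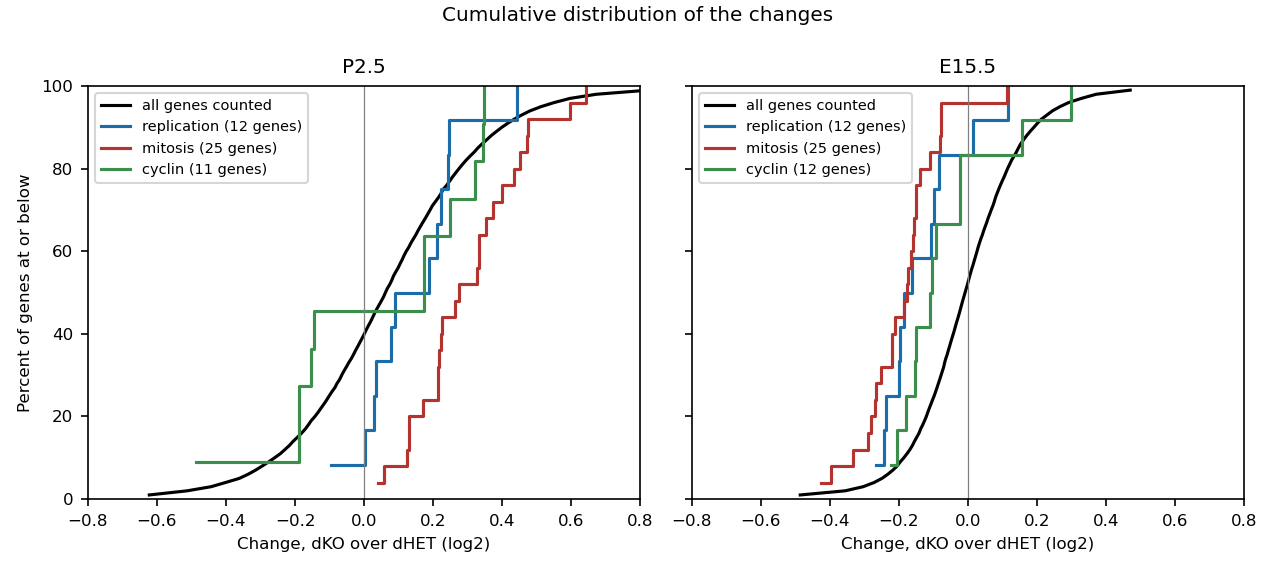
Cumulative percent of genes (y axis) by log2 change in dKO over dHET (x axis) at P2.5 (left) and E15.5 (right) for the 3 function groups and for all genes counted (black). The mitosis curve lies to the right of the black curve over most of its height at P2.5 (median 0.27 against 0.062) and to the left at E15.5 (-0.17 against -0.0074).

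Further genes of the same processes, listed by role with earlier results of these data known, were counted in the same way. Of 32 other replication genes, 29 were above 0 at P2.5 (median 0.245) and 24 below 0 at E15.5 (median -0.068), where 60.2% of all genes were above 0 and 52.2% below 0. The largest changes were those of Mcm10 (0.57), Fen1 (0.54) and Chaf1a (0.42) at P2.5, and Cdt1 (-0.28), Dbf4 (-0.22) and Cdc6 (-0.22) at E15.5. Of 50 other mitosis genes, 42 were above 0 at P2.5 (median 0.21) and 47 below 0 at E15.5 (median -0.16), and 39 had both, against 24.9% of all genes. Dlgap5 (0.49), Kif22 (0.48) and Cdc25c (0.47) led at P2.5, and Pttg1 (-0.46), which encodes securin, Hmmr (-0.37) and Ckap2l (-0.36) at E15.5. None of these 82 genes reached 1.5-fold at either stage, a fold that 3.29% (P2.5) and 0.479% (E15.5) of all genes passed upwards, and 1.3% and 0.71% downwards.

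The fetal levels of most members were higher than the newborn levels, and the gap was narrower between the dKO libraries. In dHET, 47 of 48 members were lower at P2.5 than at E15.5 (57.5% of all genes) and 42 by at least 1.2-fold (33.1%), and in dKO 45 were lower (51.1%). The stages stand in separate tables, and how their FPKM values were scaled is not stated. The newborn libraries hold single reads where the fetal ones hold read pairs, so these ratios are descriptions. In dKO the ratio sets a newborn library with Xist at 50.7 FPKM and Ddx3y at 0 against a fetal one with 0.113 and 14.8. In dHET, Ddx3y was at 11.7 (P2.5) and 15.3 FPKM (E15.5). Stage and sex therefore cannot be told apart in the dKO ratio. In dHET, the mitosis genes had a median log2 ratio of P2.5 to E15.5 of -1.22, a 2.32-fold lower newborn level, and 24 of 25 were at least 1.5-fold lower, against 12.4% of all genes. In dKO the median was -0.64, or 1.56-fold lower, with 14 of 25 at least 1.5-fold lower, against 10.5% of all genes. Over all genes the medians were -0.078 and -0.014. Replication genes had medians of -0.63 and -0.25 and cyclin genes of -0.67 and -0.53. In the values as deposited, the ratio was less negative or more positive in dKO for 25 of 25 mitosis genes, 12 of 12 replication genes and 6 of 11 cyclin genes. The share of all genes with that order was not counted. This difference of ratios is the P2.5 change minus the E15.5 change, rewritten, and adds no evidence to them. The order also turned on scaling. Centred on the median of all genes, Kif11 changed by 0.064 at P2.5 and 0.12 at E15.5, and Pcna by -0.032 and 0.024.

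Single genes ranged widely in that stage ratio. Ccnb1 had the most negative ratio in both genotypes (-1.56 in each), from 15.8 to 4.70 FPKM in dHET. Ect2 and Cenpe followed in dHET (-1.53 and -1.47), but in dKO they were at -0.98 and -0.58. Pcna was above 0 in both genotypes (0.23 and 0.25), Mcm7 in dKO only (-0.045 in dHET and 0.39 in dKO), and Cenpa likewise (-0.45 and 0.22). Ccnd1 was nearly level (-0.13 and -0.085). E2f8 was the most negative of the replication genes (-1.17 and -1.08). The ratios of Ccnb1, Pcna and Mcm7 are uncertain, because near-identical copies elsewhere in the genome cover most of their transcripts.

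**Figure D5:**
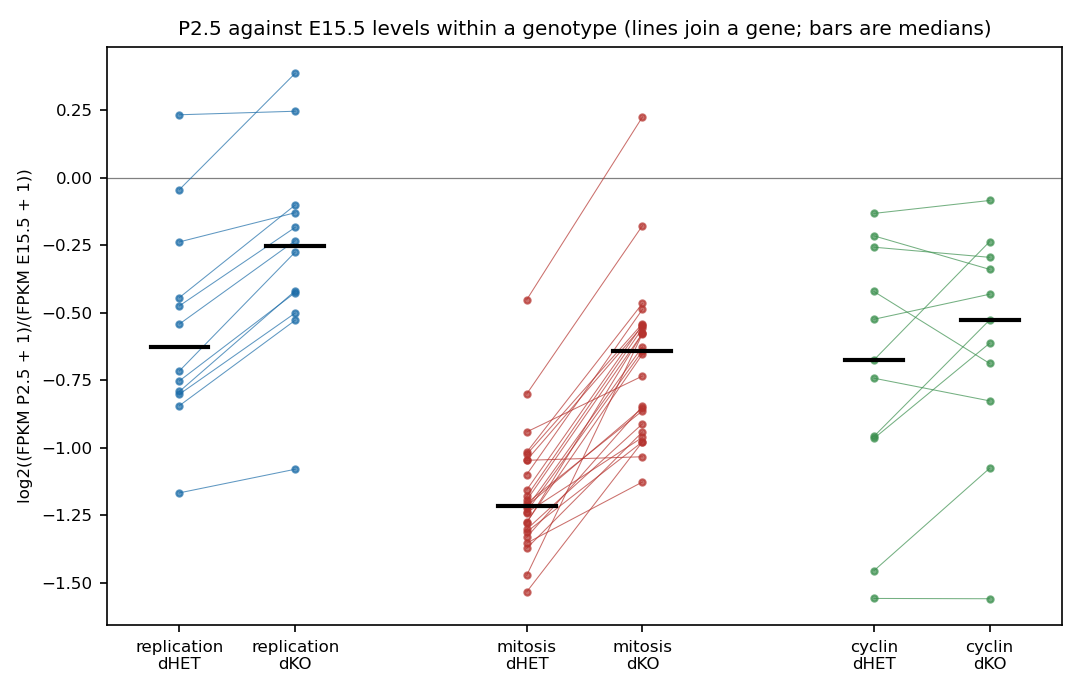
Log2 ratio of P2.5 to E15.5 levels (y axis) for each gene in dHET and in dKO (x axis), by function group, with lines joining a gene and bars at the group medians. The mitosis bar lies at -1.22 in dHET and at -0.64 in dKO, and every mitosis line goes up.

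Matches to miR-1 in the 3' UTR were no more frequent among these genes than elsewhere. The words ACATTCC or CATTCCA, which pair with the miR-1 seed, stood in the longest annotated 3' UTR of 9 of 49 members (18.4%), against 18.5% of 11692 genes, with median 3' UTR lengths of 914 and 1206 bases. The 9 carriers had median changes of 0.35 (P2.5) and -0.22 (E15.5), and the other members 0.22 and -0.16. Cenpe, with the largest P2.5 change of all members, carries the full 8-base word, as does Rrm1, which was at 0.036 at P2.5. Ccnd1 and Ccnd2 each carry a 7-base word, and their changes had opposite signs at both stages. The stretches below (build NCBIM37, the assembly of mm9, word in capitals) show 1 marked site in each of these 4 genes. Rrm1 holds 2 sites, and the second, a 7-base word, stands in lower case further along the same stretch.
Cenpe, chr3:134936408-134936437, plus strand: ttgcatctgtgACATTCCAcacgctgaact
Rrm1, chr7:109617699-109617728, plus strand: ccatttccaaaACATTCCAtcattccaaat
Ccnd1, chr7:152117583-152117612, minus strand: tgttccaaaacCATTCCAtttcaaagcact
Ccnd2, chr6:127079361-127079390, minus strand: ttgttataaacCATTCCAttagaaaagcac
The other carriers were Tyms, Birc5, Tpx2, Kif11 and Foxm1.

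Markers of the cell types in the heart did not all change in the same direction. Beside the counts below, 60.2% of all genes lay above 0 in the newborn pair and 39.7% below. In the fetal pair these shares were 47.8% and 52.2%. The marker sums are of deposited values, without rescaling. The newborn dKO table had a larger total than its control (296090 against 262659 FPKM), so a modest rise in a newborn sum may reflect scale. Heart muscle markers were abundant in every library, with a summed FPKM over 10 genes of 24000 (dHET) and 30800 (dKO) at P2.5, then 14000 and 13300 at E15.5. Macrophage markers were lower in the newborn dKO library, with 8 of 8 counted genes below 0 and sums over 10 genes of 49.9 and 38.7 FPKM at P2.5, then 33.6 and 33.7. Epicardial markers were below 0 in 5 of 6 at each stage, with sums of 28.1 and 22.3 FPKM, then 34.9 and 28.4. Endothelial markers were above 0 in 7 of 10 at P2.5 (sums 413 and 469 FPKM) and in 8 of 10 at E15.5 (307 and 328). Fibroblast markers were below 0 in 6 of 9 and 7 of 9, with sums of 1470 and 1530, then 1150 and 1100. Smooth muscle markers were below 0 in 3 of 6 and 4 of 6, with sums of 755 and 1820, then 855 and 1380, set mainly by Acta2. Of the erythroid list, 13 of 16 names had a row of their own; 7 were counted, 3 below 0 at P2.5 and 3 at E15.5, with sums of 78.0 and 63.3, then 179 and 196. Hba-a2 and Hbb-bh1 were listed at 0 in both P2.5 libraries, and no other listed cell type marker was at 0. The part of these markers in the cell cycle values was not tested. Transcript GC content went with the change over all genes, with a Pearson correlation across genes of 0.342 (P2.5) and 0.152 (E15.5). The members' median GC content was 48.6% against 50.5%. After adjustment for GC content and length the medians of the members were 0.26 (P2.5) and -0.16 (E15.5). Those of all genes were then 0.070 and -0.0044.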

How the data were processed

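Poly-A RNA of 4 whole-heart libraries was measured. The authors' deposited values were FPKM per gene, in 1 table a stage with 22552 rows, and their q-values. The submitters' processing notes name TopHat, Bowtie, Cufflinks and the build mm9, without versions. How the FPKM values were scaled is not stated there. At each stage, 86 rows displaced by commas in gene names were realigned, and 36 rows that differed between the tables were left out. Rows flagged OK or as having too few fragments were counted if any library had at least 1 FPKM. Changes were computed as log2((FPKM + 1) ratios) with Python 3.11.15, at fold thresholds of 1.5 and 1.2, which understates changes of low genes. Fragment totals were recovered from the FPKM value that 1 fragment gives, the commonest low value among genes with 1 transcript. The calculations were tested on simulated data. The members, groups, lists and naming rule (all members; for other lists the 3 largest changes a stage) were chosen with earlier results of these data known. Alternatives were pseudocounts of 0.1 and 5, other filters, centring, rescaling, all status flags, adjustment for GC content and length, and folds of 1.2 and 2.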

Additional observations from a re-analysis of the deposited data

Results flagged for a closer look

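The median change had opposite signs at the stages, a difference that was not tested, since each stage has 1 pair of libraries. Over all members it was 0.22 (P2.5) and -0.16 (E15.5), with 0.14 and -0.17 for replication genes, 0.27 and -0.17 for mitosis genes, and 0.17 and -0.11 for cyclin genes. Some mitosis genes changed by at least 1.2-fold in opposite directions: Birc5 (0.44 and -0.27), Cenpf (0.26 and -0.33), Kif20a (0.33 and -0.29) and Tpx2 (0.35 and -0.27).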

How the results depend on the processing

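No paired analysis was possible because each group has 1 library. At P2.5, the number of 48 members at least 1.5-fold higher was 2 in the values reported (3.29% of all genes). It was 0 with a pseudocount of 5, after centring and after rescaling to a sum of 1000000. At folds of 1.2 and 2 it was 18 and 0, and 21.4% of all genes were at least 1.2-fold higher. The number lower, 0 (1.3% of all genes), was 1 after rescaling (Ccnd2) and 1 at a fold of 1.2 (9.76% of all genes). Rescaling also took the share of members above 0 to 66.7% (36.7% of all genes) and the replication median to -0.026. At E15.5 a fold of 1.2 gave 1 of 49 members higher and 8 lower, against 5.15% and 4.37% of all genes. For P2.5 over E15.5 in dKO, the number of 48 members at least 1.5-fold lower, 20 (10.5% of all genes), was 40 after rescaling. Rescaling moved the median of all genes in that comparison from -0.014 to -0.36. At a fold of 1.2 the number lower was 38 (29% of all genes), and at a fold of 2 it was 5. The number higher was 1 at a fold of 1.2 (29.2% of all genes). Shares of all genes past a fold were counted only at folds of 1.5 and 1.2 on the deposited values. A lower or higher fold changes such counts by construction; of the others the cause was not tested. The remaining 86 of 100 alternative values of these counts and shares stayed within their limits. Under every alternative that gives a median, the mitosis median was above 0 at P2.5 and below 0 at E15.5.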
